A study of Mus musculus with 8 samples.

Results

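The Krüppel-like factors Klf2, Klf3, Klf4, Klf5, Klf6, Klf9, Klf10 and Klf13 were followed at the RNA level in mouse embryonic stem cells, the cultured cells of the early embryo that can form all of its tissues. Each of the 8 genes was taken as the non-control array probe whose RefSeq accession carries that symbol, which gave 1 probe on 1 spot per gene, and all 8 were among the 22686 genes and unnamed features tested. Each of 4 groups had 2 arrays, on which total RNA was read in a single colour, 8 arrays in all. Every culture was kept in ESC medium with LIF, the cytokine that holds these cells undifferentiated, and with 250 nM PD173074, an inhibitor of FGF receptors, so the untreated cells carried both as well. The groups were untreated cells (0h), cells given 250 nM 4OHT for 8 h (8h) or for 10 h (10h), and cells inhibited with 1 µM PD0325901 for 2 h after 8 h of 4OHT (8h-2h). 4OHT, or 4-hydroxytamoxifen, is a ligand that activates fusions of a protein with a modified oestrogen receptor, and PD0325901 inhibits MEK, the kinase that activates ERK. The labels name no fusion protein, no cell line or clone, no sex and no passage, and they leave unsaid if 4OHT was still present during the inhibition. Replicates are called biological in the design text without saying what separated them, so p-values measure only how far these samples spread, which may be technical.

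Krüppel-like factors bind GC-rich and CACCC-type DNA through zinc fingers at the end of the protein and differ in the partners that the rest of the protein recruits. Klf2, Klf4 and Klf5 are activators that sit with Oct4, Sox2 and Nanog on genes of the naive pluripotent state and can partly replace each other there, and Klf4 and Klf5 lie downstream of LIF and STAT3. Klf6 and Klf10 are early response genes, induced by mitogens and by TGF-beta, respectively. Klf9, Klf10 and Klf13 belong to the subgroup that recruits the Sin3 corepressor, and Klf3, with Klf8 and Klf12, to the subgroup that recruits CtBP.

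The stretch of 250 bases before the annotated start was read from RefSeq (build GRCm38.p6) for 6 of the 8 genes, all but Klf5 and Klf10. It is shown for Klf2 and Klf4, whose transcripts fell after 4OHT, for Klf6, whose transcript rose, and for Klf9, which passed no test. Capitals mark the GC box GGGCGG and the KLF-type box CCNCNCCC on either strand, 2 motifs that overlap wherever a GC box lies in a longer run of C or G.
Klf2: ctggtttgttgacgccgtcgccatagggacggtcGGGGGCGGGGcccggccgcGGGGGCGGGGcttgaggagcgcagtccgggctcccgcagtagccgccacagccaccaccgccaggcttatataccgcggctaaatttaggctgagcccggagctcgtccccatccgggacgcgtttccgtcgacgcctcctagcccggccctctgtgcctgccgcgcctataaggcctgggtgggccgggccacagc
Klf4: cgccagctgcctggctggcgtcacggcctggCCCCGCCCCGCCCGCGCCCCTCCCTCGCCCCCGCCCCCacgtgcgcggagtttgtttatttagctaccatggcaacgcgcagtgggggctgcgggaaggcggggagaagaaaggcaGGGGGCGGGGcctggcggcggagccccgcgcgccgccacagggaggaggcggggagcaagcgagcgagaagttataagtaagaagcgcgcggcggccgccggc
Klf6: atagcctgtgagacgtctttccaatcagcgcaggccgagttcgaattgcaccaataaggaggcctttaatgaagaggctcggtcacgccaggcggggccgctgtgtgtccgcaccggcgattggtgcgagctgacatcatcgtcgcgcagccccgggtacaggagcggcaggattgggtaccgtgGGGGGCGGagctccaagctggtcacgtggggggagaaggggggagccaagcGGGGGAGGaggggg
Klf9: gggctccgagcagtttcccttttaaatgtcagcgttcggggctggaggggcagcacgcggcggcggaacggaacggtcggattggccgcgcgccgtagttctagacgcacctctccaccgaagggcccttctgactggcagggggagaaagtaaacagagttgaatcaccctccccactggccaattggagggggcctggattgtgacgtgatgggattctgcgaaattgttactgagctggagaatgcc
These windows lie at chr8:72318812-72319061, plus strand for Klf2, at chr4:55532476-55532725, minus strand for Klf4, at chr13:5861239-5861488, plus strand for Klf6 and at chr19:23140976-23141225, plus strand for Klf9. The GC box was found 2 times before Klf2, 4 times before Klf4, 6 times before Klf3, 3 times before Klf13 and 1 time before Klf6. The KLF-type box was found 4, 9, 10, 5 and 2 times before the same genes, counting overlapping matches. Before Klf9 neither was found, while Klf3, which passed no test either, had the most matches of both among the 6 windows. Of 32851 mouse promoter windows of this length, 32.7% held the GC box and 45.9% the KLF-type box, so either motif is common. G and C made up 59.6% (Klf9) to 78.4% (Klf3) of the bases in the 6 windows, beside a median of 52.4% over all windows. The part of base composition in the motif counts was not tested. An E box (CACGTG, in 6.02% of windows) was found before Klf4 and Klf6, 1 each. A STAT-type site (TTCNNNGAA, 7.02%) and an AP-1-type site (TGANTCA, 6.75%) were found before Klf9, 1 each. The ETS-type site CCGGAAG, the cyclic AMP element TGACGTCA, the EGR-type site GCGTGGGCG, the TCF-type site CTTTGAT, the TATA box TATAAA and the CArG box were in none of the 6 windows, which says only that these letters are not in these stretches.

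The probes of all 8 genes were well above background on all 8 arrays, and no spot on any array was saturated. Levels are given as log2 of the processed signal over the array's 75th percentile, so a level compares 1 gene across arrays and never 2 genes with each other. Between 30218 and 37789 of 59305 spots per array were well above background, fewer on every array of replicate 2. The labelled cell type was checked with 8 embryonic stem cell markers, all above background on every array, whose summed signal was 702 to 887 times the 75th percentile. Single markers did change against untreated cells. At 10 h 2 were called higher and 1 lower (-3.10 to 1.00), beside 27.9% of all features called. After PD0325901 2 were called higher and 3 lower (-1.44 to 0.50), beside 15.9% of all features. Sums of markers of other cell types, each compared across arrays only, moved with the groups or the replicates. The sum of 8 trophoblast markers was 18.5 to 22.0 in untreated cells, 36.0 to 42.7 at 8 h, 50.5 to 64.6 at 10 h and 52.1 to 53.1 after PD0325901, with Elf5 below background on 7 of 8 arrays. Its members split at 10 h, 4 of 7 tested being called higher and 2 lower, where 27.9% of all features were called (13.1% higher and 14.8% lower). After PD0325901 5 of the 7 were called higher than in untreated cells and 0 lower (median 1.74), beside 15.9% of all features. The sum of 8 primitive endoderm markers was 58.2 to 86.3 in replicate 1 and 27.2 to 43.5 in replicate 2 over the 4 groups. The sum of 8 neural progenitor markers was 7.55 to 9.28 in untreated cells, 13.3 to 14.1 at 10 h and 15.8 to 16.7 after PD0325901. But of 6 tested 2 were called higher and 3 lower at 10 h, beside the same 27.9% of all features, with a median difference of 0.02. After PD0325901 2 of the 6 were called higher than in untreated cells and 0 lower (median 0.13), beside 15.9% of all features. The sum of 8 fibroblast markers was 2.30 to 3.43 in untreated cells and 13.8 to 41.0 in the others. Only 3 of these were tested, of which Thy1 was 3.62 ± 0.60 higher and Col1a1 lower (-0.58 ± 0.11) at 10 h, with a median of -0.46, and Lum was below background on every array. The part of other cell types in the results was not tested, and in bulk RNA fewer cells of a type and less RNA per cell cannot be told apart. The agents were checked with Dusp6, an ERK phosphatase gene that ERK itself induces, which rose by 2.84 ± 0.09 (SE) at 8 h (adjusted p = 0.00019) and fell by 5.85 ± 0.09 on inhibition against 10 h (adjusted p = 5.27e-05).

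After 4OHT the KLF genes split. Klf2, Klf4 and Klf13 fell and Klf5, Klf6 and Klf10 rose, in the comparison with untreated cells at 8 h and again at 10 h, while Klf3 and Klf9 passed no test at either time. The falls at 8 h ran from 1.58-fold for Klf13 to 2.74-fold for Klf4, and the rises from 1.76-fold for Klf10 to 2.21-fold for Klf6. Counts of called genes, those with a Benjamini-Hochberg adjusted p under 0.05 in the limma fit of all features, were thus 3 higher and 3 lower of 8 at both times. Over all features 21.7% were called at 8 h (10.3% higher and 11.5% lower) and 27.9% at 10 h (13.1% higher and 14.8% lower). Of the features called, 47.2% were higher at 8 h and 47.0% at 10 h, and centred on the array median 66.7% and 72.2%, while no called KLF gene changed direction. The median difference of the 8 genes was -0.14 at 8 h and 0.00 at 10 h, beside -0.04 and -0.05 over all features. The 2 comparisons share the untreated arrays and are not independent.

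**Figure D1:**
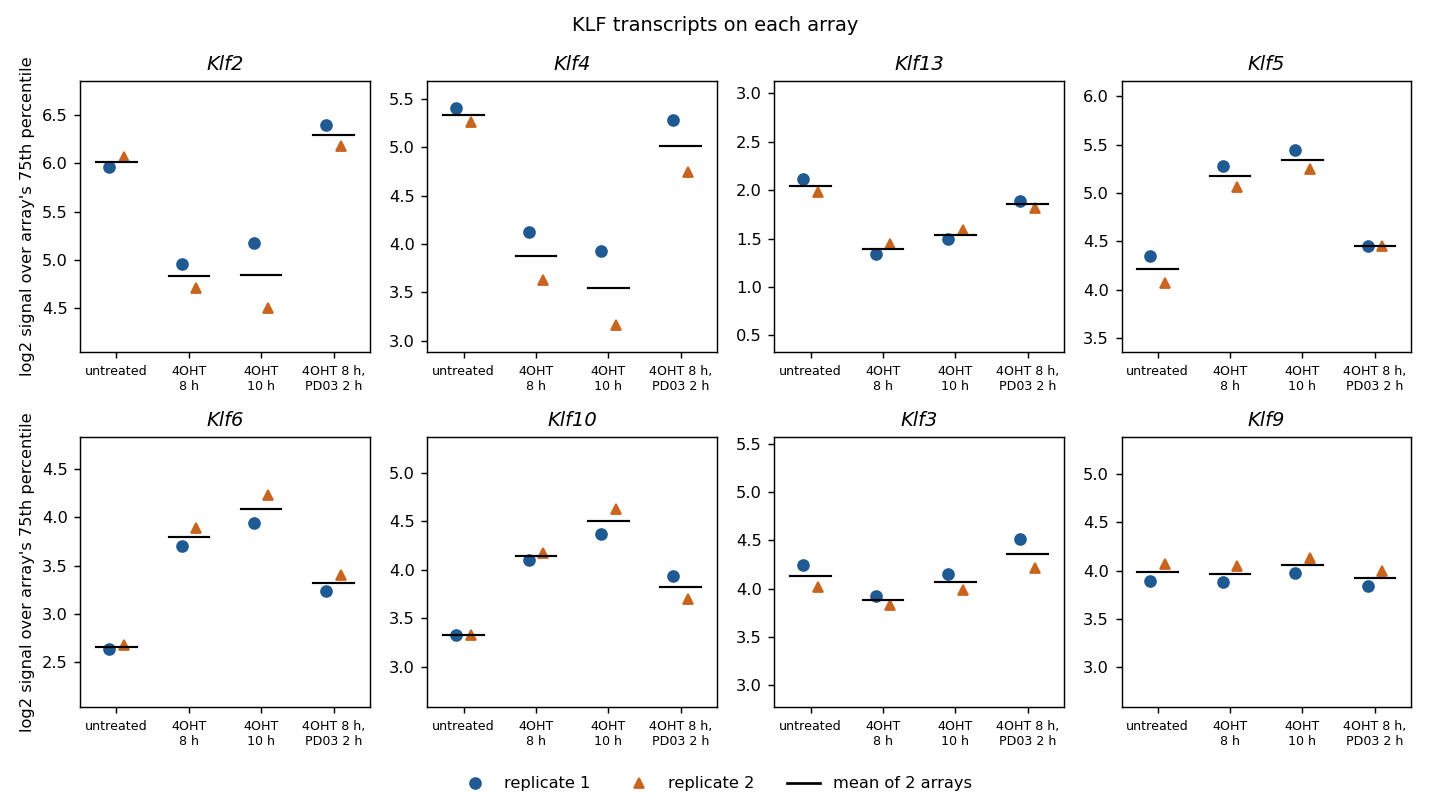
Level of each of the 8 KLF transcripts on each array, as log2 of the processed signal over the array's 75th percentile (vertical axis, 1 panel per gene, all panels spanning the same range), against the 4 groups; PD03 stands for PD0325901, circles and triangles are replicates 1 and 2 and bars the mean of 2 arrays. Klf2, Klf4 and Klf13 are lower and Klf5, Klf6 and Klf10 higher on all 4 arrays with 4OHT alone than on both untreated arrays, and Klf9 lies between 3.84 and 4.13 throughout.

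Klf2, an activator of the naive pluripotency network, stood at 5.96 and 6.07 in untreated cells (replicates 1 and 2), at 4.96 and 4.71 after 8 h of 4OHT, at 5.18 and 4.50 after 10 h and at 6.40 and 6.18 after PD0325901. All 4 arrays with 4OHT alone were below the untreated arrays, and both inhibited arrays were above them. At 8 h the log2 level of Klf2 fell by 1.18 ± 0.23, or 2.27-fold (adjusted p = 0.0198), and by 1.17 ± 0.23 at 10 h (adjusted p = 0.0167). With PD0325901 it was 1.45 ± 0.23 higher than in the time-matched cells at 10 h, or 2.73-fold (adjusted p = 0.0265), and 1.46 ± 0.23 higher than at 8 h, when the inhibitor was added (adjusted p = 0.0244). Against untreated cells the inhibited cells differed by 0.28 ± 0.23 (adjusted p = 0.463), with a 95% interval from -0.30 to 0.85. With the groups in order of level, the neighbouring inhibited and untreated cells passed no test, nor did 10 h and 8 h (0.01, adjusted p = 0.999). The call at 8 h was lost without any 1 of 5 arrays, namely any array of the untreated or the 8 h group or replicate 2 of the inhibited group (adjusted p from 0.0525 to 0.130). That at 10 h was lost without either untreated array or replicate 2 at 10 h (0.051 to 0.0946), and that against 10 h on inhibition without any array but replicate 1 at 10 h (0.0608 to 0.127). The call against 8 h was lost without any array but the 2 at 10 h (0.0647 to 0.163). With dim probes kept in, none of the 4 calls held (adjusted p = 0.0655, 0.0545, 0.0989 and 0.0921, in the order given), nor did those at 10 h and against 10 h with only the groups compared in the fit (0.055 and 0.108).

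Klf4, the activator used in reprogramming to pluripotency, had the largest fitted falls of the 8 genes. It stood at 5.40 and 5.26 in untreated cells, at 4.13 and 3.63 after 8 h of 4OHT, at 3.93 and 3.16 after 10 h and at 5.28 and 4.75 after PD0325901. Replicate 1 was above replicate 2 in all 4 groups, by 0.49 on average, and the arrays with 4OHT alone overlapped neither the untreated nor the inhibited arrays. Klf4 fell by 1.46 ± 0.32 at 8 h, or 2.74-fold (adjusted p = 0.0281), and by 1.79 ± 0.32 at 10 h, or 3.45-fold (adjusted p = 0.0121). On inhibition it was 1.47 ± 0.32 higher than at 10 h, a difference close in size to that of Klf2, but with an adjusted p of 0.0614 it was not called. It was called with the replicate number as a block (adjusted p = 0.00966), under normexp (0.0192), with an intensity trend and robust prior (0.0208) and over only probes above background on all arrays (0.0424), and the difference was 1.35 within replicate 1 and 1.59 within replicate 2. Against 8 h the difference was 1.14 ± 0.32 (adjusted p = 0.111, but 0.0159 with the block, 0.0411 under normexp and 0.0498 with the trend). The inhibited cells differed from untreated cells by -0.32 ± 0.32 (adjusted p = 0.538, 95% interval -1.12 to 0.48), an interval that does not reach the fitted fall at 8 h. The call at 8 h was lost without any array of the untreated or the 8 h group or without replicate 2 of the inhibited group (adjusted p from 0.0544 to 0.164) and with dim probes kept in (0.0844). The call at 10 h was lost without either untreated array or replicate 2 at 10 h (0.0634 to 0.0666).

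Klf13, a repressor of the Sin3-recruiting subgroup, moved less but with a smaller error. It stood at 2.11 and 1.98 in untreated cells, at 1.34 and 1.44 after 8 h, at 1.49 and 1.58 after 10 h and at 1.88 and 1.82 after PD0325901. The groups did not overlap, and the inhibited arrays lay between the untreated arrays and those with 4OHT alone. Klf13 fell by 0.66 ± 0.09 at 8 h, or 1.58-fold (adjusted p = 0.00536), and by 0.51 ± 0.09 at 10 h (adjusted p = 0.00959). The call at 8 h was kept without any 1 array, and that at 10 h was lost without replicate 1 or replicate 2 at 10 h (0.0556 and 0.0554) and centred on the array median (0.0511). On inhibition Klf13 rose by 0.46 ± 0.09 against 8 h (adjusted p = 0.0373), a call lost without any 1 of the 8 arrays (0.0616 to 0.165), with dim probes kept in (0.161), with only the groups compared (0.105) and centred on the array median (0.0626), and its difference from 10 h was 0.31 ± 0.09 (adjusted p = 0.107, and 0.0364 under normexp). The difference of inhibited from untreated cells was -0.20 ± 0.09 (adjusted p = 0.177).

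Klf5, the third of the activators of the naive state, went the other way from Klf2 and Klf4. It stood at 4.35 and 4.07 in untreated cells, at 5.28 and 5.06 after 8 h of 4OHT, at 5.44 and 5.25 after 10 h and at 4.45 and 4.45 after PD0325901. The inhibited arrays lay just above the untreated arrays and well below all 4 arrays with 4OHT alone. Klf5 rose by 0.96 ± 0.14 at 8 h, or 1.94-fold (adjusted p = 0.007), and by 1.13 ± 0.14 at 10 h, or 2.19-fold (adjusted p = 0.00336), and both calls were kept without any 1 array. On inhibition it fell by 0.89 ± 0.14 against 10 h, or 1.86-fold (adjusted p = 0.0222), and by 0.72 ± 0.14 against 8 h (adjusted p = 0.0384). The first of these calls was lost without any array of the 10 h or the inhibited group or replicate 2 at 8 h (0.0619 to 0.129), with dim probes kept in (0.0934) and with only the groups compared (0.0561). The second was lost without any 1 of the 8 arrays (0.0549 to 0.176), with dim probes kept in (0.139), with only the groups compared (0.0784), centred on the array median (0.0695) and under quantile normalization (0.0653). Inhibited and untreated cells differed by 0.24 ± 0.14 (adjusted p = 0.285, 95% interval -0.10 to 0.57).

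Klf6, an early response gene, stood at 2.63 and 2.68 in untreated cells, at 3.70 and 3.89 after 8 h, at 3.94 and 4.23 after 10 h and at 3.24 and 3.40 after PD0325901. Its groups did not overlap, and the inhibited arrays were above the untreated arrays and below all others. Klf6 rose by 1.14 ± 0.13 at 8 h, or 2.21-fold (adjusted p = 0.00358), and by 1.43 ± 0.13 at 10 h, or 2.70-fold (adjusted p = 0.00144), with both calls kept without any 1 array. On inhibition it fell by 0.77 ± 0.13 against 10 h, or 1.70-fold (adjusted p = 0.0304), and was 0.66 ± 0.13 above untreated cells, or 1.58-fold (adjusted p = 0.0263). Against 8 h the difference was -0.48 ± 0.13 (adjusted p = 0.0999, 0.0249 with the replicate block and 0.0438 with the trend). The call against 10 h was lost without any array but replicate 1 at 10 h (0.0623 to 0.165), with dim probes kept in (0.122) and with only the groups compared (0.110). The call against untreated cells was lost without any untreated or inhibited array or replicate 2 at 8 h (0.0635 to 0.141) and with dim probes kept in (0.0963).

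Klf10, a TGF-beta early gene that represses through Sin3, stood at 3.32 and 3.33 in untreated cells, at 4.10 and 4.18 after 8 h, at 4.38 and 4.63 after 10 h and at 3.94 and 3.70 after PD0325901. As for Klf6, the inhibited arrays lay between the untreated arrays and the others. Klf10 rose by 0.81 ± 0.12 at 8 h, or 1.76-fold (adjusted p = 0.00862), a call lost without replicate 2 of the untreated or of the 8 h group (0.0609 and 0.0759), and by 1.18 ± 0.12 at 10 h, or 2.26-fold (adjusted p = 0.00218), a call kept without any 1 array. On inhibition it fell by 0.68 ± 0.12 against 10 h, or 1.61-fold (adjusted p = 0.0357), and was 0.49 ± 0.12 above untreated cells (adjusted p = 0.0487). Both of these calls were lost without any 1 of the 8 arrays (0.059 to 0.198, and 0.0591 to 0.180), with dim probes kept in (0.139 and 0.156), with only the groups compared (0.137 and 0.0994) and under quantile normalization (0.0776 and 0.0528). Against 8 h the difference was -0.32 ± 0.12 (adjusted p = 0.209).

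Klf3 and Klf9 passed no test in any of the 6 comparisons. Klf3, which recruits CtBP, stood at 4.25 and 4.02 in untreated cells, at 3.93 and 3.83 after 8 h, at 4.15 and 3.98 after 10 h and at 4.52 and 4.21 after PD0325901, so the inhibited arrays were above the arrays with 4OHT alone but overlapped the untreated ones. Its difference of inhibited cells from 8 h was 0.48 ± 0.14 (adjusted p = 0.117, and 0.0199 with the replicate block). Klf9, a hormone-responsive repressor, stood at 3.89 and 4.07 in untreated cells, at 3.88 and 4.05 after 8 h, at 3.98 and 4.13 after 10 h and at 3.84 and 3.99 after PD0325901. Replicate 2 was above replicate 1 in all 4 groups, by 0.16 on average, which is more than any difference between its group means. Against untreated cells the 95% interval for Klf9 was -0.30 to 0.26 at 8 h and -0.21 to 0.35 at 10 h, which leaves out changes of the size seen for the 6 called genes at those times.

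**Figure D2:**
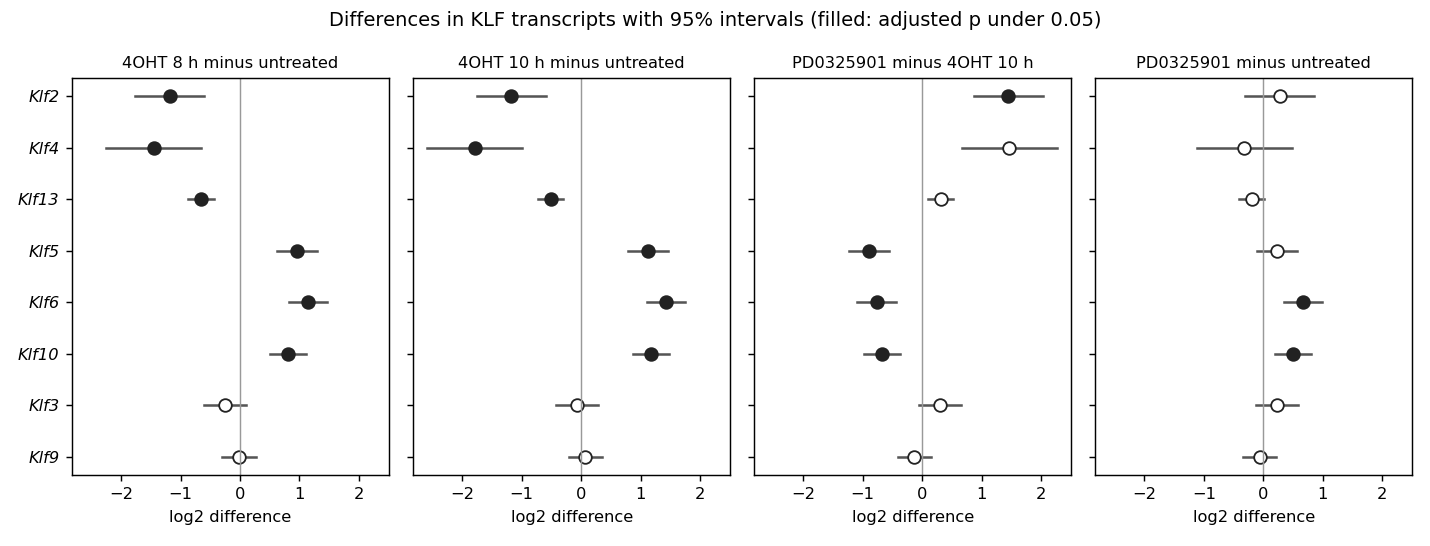
Fitted log2 differences of the 8 KLF transcripts in 4 comparisons (horizontal axis, points) with 95% intervals of the limma fit (lines); filled points have an adjusted p under 0.05. In the first 2 panels 3 genes are called lower and 3 higher, in the third 1 gene is called higher and 3 lower, and in the fourth Klf6 (0.66) and Klf10 (0.49) are called.

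Against the time-matched cells at 10 h, the 2 h of PD0325901 gave a fitted difference opposite in sign to the change after 4OHT for each of the 6 genes called there. Of these, Klf2 rose and Klf5, Klf6 and Klf10 fell, so 1 gene was called higher and 3 lower of 8, where 6.12% of all features were called (3.24% higher and 2.87% lower). The median difference of the 8 genes was 0.08 there, beside -0.04 over all features. Against the 8 h cells Klf2 and Klf13 rose and Klf5 fell, where 6.52% of features were called (3.4% higher and 3.11% lower), and the count of 3 became 6 with the replicate block. Against untreated cells 2 of 8 were called, both higher, where 15.9% of features were called (7.06% higher and 8.8% lower). Whether Klf6 and Klf10 kept more of their rise than Klf5 was not tested. From 8 h to 10 h of 4OHT without inhibitor no KLF gene was called by limma, as no feature was (0% of 22686), and at an unadjusted p under 0.05 there were 1 of 8 KLF genes (Klf10, 0.36 ± 0.12) and 6.61% of features. The comparisons with the inhibited cells share arrays with those of 4OHT against untreated cells, so opposite signs in them are not independent.

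Across the 8 arrays the levels of the genes that fell and those that rose ran against each other. As a description over 8 arrays that share the 4 conditions, Pearson's r was 0.94 between Klf2 and Klf4, 0.97 between Klf6 and Klf10 and 0.90 between Klf5 and Klf6, and it was -0.87 between Klf4 and Klf5 and -0.94 between Klf4 and Klf6. Among 12931 other named genes above background on all arrays, the most alike by r were Efna4, Irak3 and Pllp for Klf2 (0.990, 0.987 and 0.986) and Tob1, Khnyn and Sema4a for Klf4 (0.993, 0.992 and 0.990). For Klf13 they were Capn5, Kcnh3 and Sel1l (0.993, 0.991 and 0.986). For Klf5 they were Icosl, Rgs3 and Mafk (0.993, 0.992 and 0.991), for Klf6 Rab5if, Akr1b3 and Rab5a (0.996, 0.995 and 0.994) and for Klf10 Leng1, F3 and Foxo1 (0.995, 0.991 and 0.989). For Klf3 they were Sphk1, Nxpe3 and Lpin1 (0.987, 0.983 and 0.979), and for Klf9, whose levels follow the replicate number, Zer1, Gphn and Impact (0.985, 0.983 and 0.979). Pearson's r leaves out the size of a change. At 8 h against untreated cells Khnyn differed by -0.28 beside -1.46 for Klf4, and Capn5 by -2.82 beside -0.66 for Klf13.

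Of 9 other KLF genes 8 were tested, Klf14 not being well above background on both arrays of any group. Of the 8, 1 rose and 2 fell at 8 h (median difference -0.49), 2 rose and 3 fell at 10 h (-0.63), and 1 rose and 1 fell on inhibition against 10 h (0.67), beside medians over all features of -0.04, -0.05 and -0.04 and shares called of 21.7%, 27.9% and 6.12%. Klf8, which recruits CtBP like Klf3, fell by 1.59 ± 0.20 at 8 h (adjusted p = 0.00492) and by 1.53 ± 0.20 at 10 h (0.00449), with a difference of 0.95 ± 0.20 on inhibition against 10 h (0.0559). Klf11, a Sin3-recruiting relative of Klf10 named here after its values were seen, fell by 1.25 ± 0.29 at 8 h (adjusted p = 0.0313), opposite to Klf10. Klf7 rose by 0.58 ± 0.10 at 10 h (adjusted p = 0.00925) and fell by 0.56 ± 0.10 on inhibition (0.0312). Klf1, the erythroid member, fell by 0.79 ± 0.16 at 10 h (0.0165) and rose by 0.78 ± 0.16 on inhibition (0.0488), and Klf16 rose by 0.51 ± 0.10 at 10 h (0.0138). Of the SP factors, the sister family with the same zinc fingers, 8 of 9 were tested, and 2 rose and 1 fell at 8 h (median -0.16) and 1 rose and 2 fell on inhibition against 10 h (median -0.03). Sp5, a WNT target, rose by 3.49 ± 0.10 at 8 h (adjusted p = 0.000169), fell by 1.63 ± 0.10 on inhibition (0.00196) and was still 2.36 ± 0.10 above untreated cells (0.000463). Sp1 rose by 0.54 ± 0.08 at 8 h (0.00962) and fell by 0.43 ± 0.08 on inhibition (0.0442). Sp2 fell by 0.34 ± 0.09 at 8 h (0.0421), but not by a called difference at 10 h. There 2 of the 8 tested SP factors were called higher and 0 lower (lowest difference -0.23), beside 27.9% of all features. Sp8 differed by -0.51 ± 0.35 at 8 h (0.362) and rose by 1.94 ± 0.35 on inhibition against 10 h (0.0376).

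**Figure D3:**
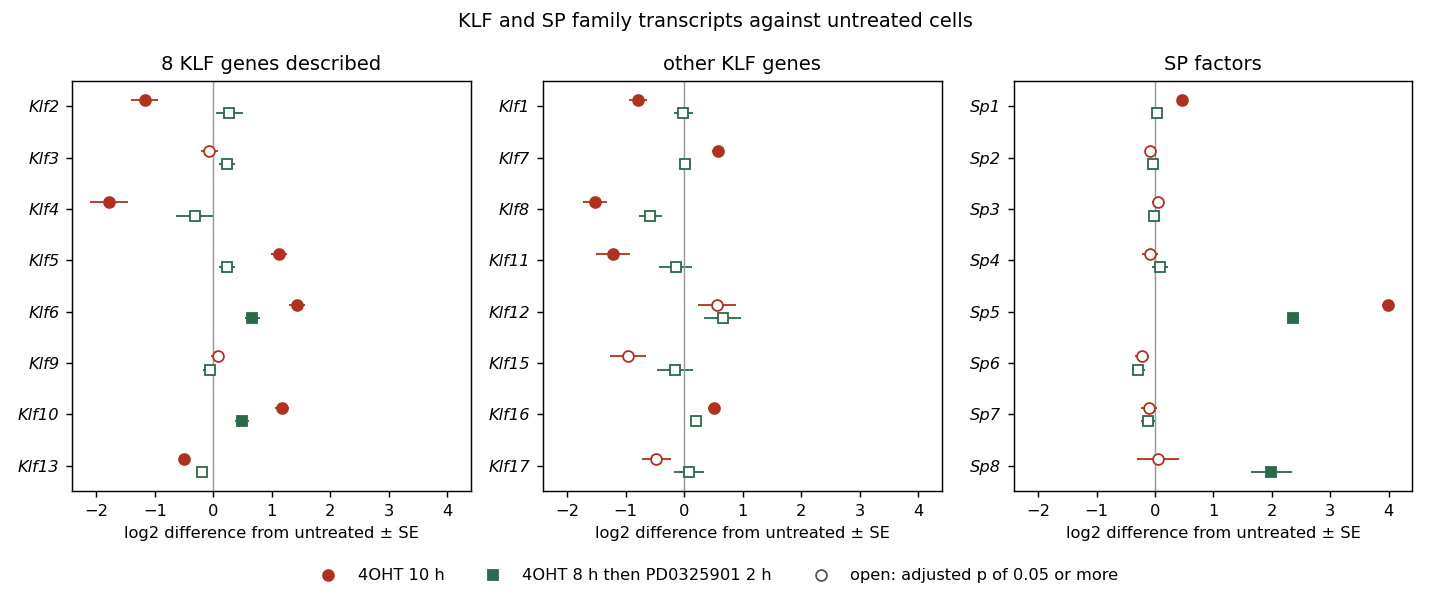
Log2 difference from untreated cells ± SE of the fit (horizontal axis) for the tested KLF and SP genes after 10 h of 4OHT (circles) and after 4OHT 8 h then PD0325901 2 h (squares); filled symbols have an adjusted p under 0.05. For Klf2, Klf4, Klf8 and Klf11 the square lies nearer to 0 than the circle, and Sp5 lies at 3.99 after 10 h of 4OHT and 2.36 after inhibition.

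Genes that act around the KLF factors were read from lists, whose counts stand beside 21.7% of all features called at 8 h and 6.12% on inhibition against 10 h, with a median over all features of -0.04 in both. Of 12 partners in the naive network, 3 rose and 5 fell at 8 h, with a median difference of -0.75, and 3 rose and 1 fell on inhibition against 10 h, with a median of 0.14. Nanog fell by 2.59 ± 0.19 at 8 h and rose by 1.66 ± 0.19 on inhibition against 10 h (adjusted p = 0.00997), and Prdm14 fell by 2.84 ± 0.29 and rose by 2.13 ± 0.29 (0.0167). Tbx3 fell by 1.55 ± 0.24 and rose by 1.39 ± 0.24 (0.0325), whereas Esrrb differed by 0.21 ± 0.23 on inhibition (0.657). Gbx2, like Klf5, rose at 8 h, by 2.68 ± 0.16 (0.000576), and fell by 4.37 ± 0.16 on inhibition (0.000543). Unlike Klf2, Nanog fell by 1.44 ± 0.19 in the comparison of inhibited with untreated cells (adjusted p = 0.00873), although the difference between the 2 genes was not tested. On the LIF and STAT3 axis 1 of 8 tested genes rose at 8 h and 0 fell in the limma fit (median 0.17). At an unadjusted p under 0.05 there were 3 of the 8 at 8 h, beside 35.7% of all features. In the limma fit 2 rose and 2 fell on inhibition against 10 h (median -0.08). Stat3 itself differed by 0.15 ± 0.18 at 8 h (0.603). Socs3, the feedback inhibitor of that pathway, differed by -0.25 ± 0.10 at 8 h (0.142) and rose by 0.73 ± 0.10 on inhibition (0.0178). Pim1 and Pim3, kinase genes that STAT3 induces, fell by 2.15 ± 0.10 (0.00123) and 0.77 ± 0.10 (0.0161) on inhibition.

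Of 8 corepressor and ubiquitin ligase genes of the KLF factors, Ctbp2, the corepressor of Klf3 and Klf8, rose by 0.71 ± 0.07 at 8 h (adjusted p = 0.00229) and fell by 0.50 ± 0.07 on inhibition against 10 h (0.0181), and the other 7 passed neither test (list medians -0.04 and -0.12). Of the ERK5 and MEF2 axis, which controls Klf2 and Klf4 in endothelium, Map2k5, the ERK5 activator, fell by 0.84 ± 0.13 at 8 h (0.00895). That fall was not called at 10 h. There 1 of the 6 tested genes was called higher and 0 lower (lowest difference -0.36), beside 27.9% of all features called. None of the 6 tested genes of this axis was called by limma on inhibition against 10 h (median -0.01). At an unadjusted p under 0.05 there were 0 of them, beside 21.2% of all features. Of 8 TGF-beta early response genes, the setting in which Klf10 was found, 3 rose and 1 fell at 8 h (median 0.35). Against 10 h on inhibition 0 rose and 3 fell in the limma fit (median -0.59). There 5 of the 8 had an unadjusted p under 0.05, beside 21.2% of all features. Tgfb1 rose by 1.94 ± 0.19 (0.00216) and Skil by 0.80 ± 0.14 (0.0147) at 8 h. On inhibition Smad7 fell by 2.19 ± 0.15 (0.00253), Tgif1 by 1.13 ± 0.12 (0.00762) and Skil by 0.75 ± 0.14 (0.0434). Of 13 ERK readout genes, 12 rose at 8 h and 11 fell on inhibition (medians 2.84 and -2.94), among them Egr1 (3.83 ± 0.29 and -5.39 ± 0.29). After inhibition 4 of the 13 were called higher and 4 lower than in untreated cells (median -0.13), with Dusp6 among the lower (-2.90 ± 0.09, adjusted p = 0.000261). In that comparison 15.9% of all features were called (7.06% higher and 8.8% lower).

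**Figure D4:**
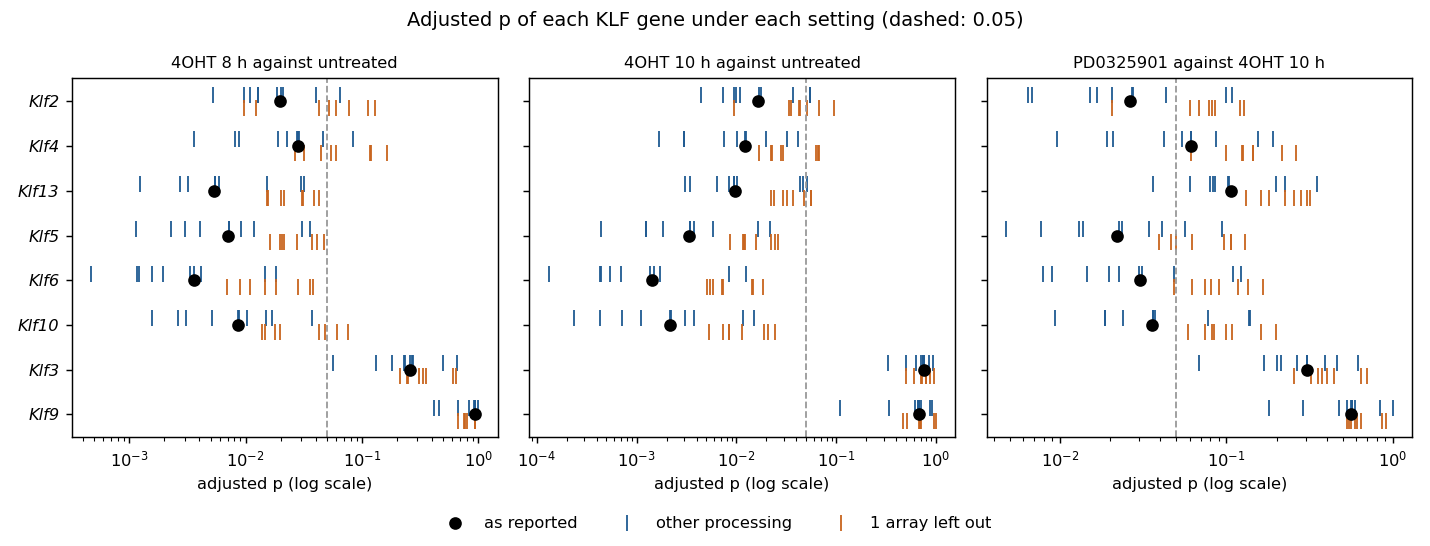
Adjusted p of each KLF gene in 3 comparisons (horizontal log axis) as reported (black points), under 10 other ways of processing (blue ticks above) and with 1 of the 8 arrays left out (orange ticks below); the dashed line is 0.05. At 8 h Klf5, Klf6 and Klf13 stay left of the line under every setting, at 10 h Klf5, Klf6 and Klf10 do, and against 10 h on inhibition no gene does.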

How the data were processed

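A low-input kit was used for labelling, per the labels' protocols. Each array (design 028005, build mm9) was read in 1 channel by Feature Extraction 11.0.1.1, per the file headers, and the deposited processed signal is a background-subtracted intensity not scaled between arrays. The authors' deposited value table holds that intensity on a linear scale, not centred, within 0.497% (medians 29.9, 23.5, 21.6 and 22.4 for replicate 1 and 27.9, 26.5, 23.7 and 23.9 for replicate 2 of 0h, 8h, 10h and 8h-2h). Symbols came from matching unversioned RefSeq accessions to a GRCm38.p6 table (27656 of 55681 probes with 1 symbol, 0 with several, 28025 with none). The array design and that table differ in build, so the only coordinates given are those of the promoter windows, in GRCm38.p6, and probe sequences were not used here, so cross-hybridisation between KLF genes was not tested.

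Control and outlier spots were left out, spots of a probe averaged, and log2 signal minus the array's 75th percentile taken. No value of the 8 KLF genes was left out. Probes that were well above background on the 2 arrays of some group entered (30329), the brightest standing for its gene. All 8 arrays were fitted together with 1 mean for each group in R 4.3.3 with limma 3.58.1 (two-sided, residual degrees of freedom 4, prior 1.71), with Benjamini-Hochberg adjustment over 22686 features at 0.05 and Python 3.11.15 for reading. The fit was also run on simulated data with few changed features and errors independent between arrays. That setting leaves out the correlation between same-numbered arrays given below. Errors are SE of the fit unless stated, and 2 arrays per group limit the precision. Named genes were all 8 KLF genes with likeness by Pearson's r, called genes of smallest adjusted p from the family (4) and partner lists (3), and fixed genes. Of the genes this rule names, 1 from a partner list is not reported here. The members and lists were chosen with earlier results of these data known.

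All arrays lie on 1 slide, whose rows are the replicate numbers and whose columns go with the groups, so column and group cannot be told apart. Deviations from group means correlated at 0.29 to 0.36 between same-numbered arrays in all 6 pairs of groups. Since the slide rows are the replicate numbers, a pairing of the samples and an effect of the row cannot be told apart. The reported fit leaves the replicate number out, and the block that takes it in is an alternative. The other alternatives were median centring, quantile normalization, normexp, other filters and probe rules, a variance trend, the value table, fewer groups and leaving out each array.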

Additional observations from a re-analysis of the deposited data

How the results depend on the processing

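No KLF gene called in a comparison changed direction under the 18 other settings run for it. Of the 8 KLF genes, 6 were called at 8 h and 6 at 10 h against untreated cells as reported, 4 at 8 h with no filter on dim probes and 5 at 10 h centred on the array median, with no such filter or with only the groups compared, while leaving out each array gave 3 to 6 at either time. Against 10 h on inhibition the count of 4 fell to 0 with no filter on dim probes and to 0 with only the groups compared, and was 0 to 2 with an array left out, whereas it was 6 under normexp and 5 with the intensity trend or with only probes above background on all arrays. Against 8 h the count of 3 became 1 centred on the array median, 0 with no filter on dim probes, 6 with the replicate block, 5 with an intensity trend and robust prior, 1 with only the groups compared and 0 to 1 with an array left out. Against untreated cells after inhibition the count of 2 became 1 under quantile normalization, 0 with no filter on dim probes, 1 with only the groups compared and 0 to 1 with an array left out. Between 10 h and 8 h it was 0 under every setting. The replicate block left the counts at 8 h (6), at 10 h (6) and against untreated cells after inhibition (2) as they were, and raised that against 10 h from 4 to 5. It added Klf4 in both comparisons of inhibited cells with 4OHT alone, and Klf3 and Klf6 in that of inhibited cells against 8 h. It changed no other call of a KLF gene. Without the filter dim probes enter the adjustment, and with fewer arrays or groups fewer residual degrees of freedom are left. Leaving out an array also raised the number of features tested above that of the reported fit, so the adjustment changed too. The cause of the changes in these counts was not tested for any setting.

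Centring on the array median moved the median of all features from -0.04 to 0.09 at 8 h, from -0.05 to 0.14 at 10 h and from -0.07 to 0.04 after inhibition against untreated cells, and the share of calls that were higher from 47.2% to 66.7%, from 47.0% to 72.2% and from 44.5% to 67.1%. Against 10 h on inhibition that share was 53.0% and became 41.8%. All 8 KLF genes were well above background on every array, yet normexp background correction made calls of Klf4 (0.0192) and Klf13 (0.0364) against 10 h and of Klf4 (0.0411) against 8 h.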
